A study of Mus musculus with 6 samples.

Results

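The 10 genes described here encode the enzymes that skeletal muscle uses to keep ATP supplied during contraction: Ckm, Ckmt2, Pygm, Phka1, Phkg1, Pfkm, Aldoa, Pgam2, Eno3 and Ampd1. They were chosen by gene name as the muscle isoforms of phosphocreatine, glycogen and glycolysis enzymes, with no measured value used in the rule, and are 10 of the 55291 genes in the tables. RNA of shaved whole dorsal skin was sequenced from 3 wild-type (WT) mice and from 3 tight skin (TSK) littermates, all of the C57BL/6 strain, 6 to 8 weeks old and untreated by any agent named in the labels. TSK mice are heterozygous for a duplication inside Fbn1, the gene of the microfibril protein fibrillin 1, and the line was kept by backcrossing, so DNA near Fbn1 can also differ between the groups. The tissue was not dissociated or sorted, so each library mixes epidermis, dermis, fat and any muscle that came off with the skin.

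Contracting muscle fibres rebuild ATP first from phosphocreatine, through creatine kinase, and then from glycogen, which glycogen phosphorylase releases as glucose phosphate for glycolysis. Many of these steps are carried out in muscle by isoforms that other tissues express little, which is why their RNA marks muscle in a mixed tissue. Mouse dorsal skin carries a thin sheet of striated muscle, the panniculus carnosus, beneath the fat layer.

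The 10 genes lie on 8 chromosomes. In the mm10 build, and by the gene bounds in GENCODE M21, Ckm lies at chr7:19404776-19422841 on the plus strand and Ckmt2 at chr13:91853387-91876885 on the minus strand. The glycogen enzymes are at chr19:6384399-6398459 (Pygm, plus), chrX:102513975-102644246 (Phka1, minus) and chr5:129863421-129898549 (Phkg1, minus). Pfkm is at chr15:98092589-98132451 (plus), Aldoa at chr7:126795234-126809108 (minus), Pgam2 at chr11:5801640-5803733 (minus), Eno3 at chr11:70657202-70662513 (plus) and Ampd1 at chr3:103074014-103099720 (plus). Values are summed over the exons of each gene. The RNA of Ckm shares 15.5% of its exon bases with an antisense gene, that of Ckmt2 5.7% and that of Phkg1 9.7% with Sumf2 on the opposite strand, and no source used here states whether reads were counted by strand. Pfkm shares 10.2% of its exon bases with Gm26513 on the same strand, so reads there could be split between them. Aldoa spans a pair of annotated loci and shares 5.1% of its 50-base words with other genes, mostly pseudogenes, so its counts could be split among copies.

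Since most of these enzymes varied together across the libraries, as described later, the 250 bases before their transcription starts were read from RefSeq (GRCm38.p6). A window was found for 9 of the 10 genes, Ampd1 being without one, and 14 windows in all, because Pfkm and Aldoa have several starts. The motif CAGCTG, an E-box that the myogenic factors MyoD and myogenin can bind and that reads the same on both strands, was found in 5 of the 14 windows, those of Ckm, Ckmt2, Pygm, Phka1 and Pgam2. Among all 27025 promoters of the same length, taken as 1 window per gene, 12.77% hold it, against 5 of the 9 genes here. The shares of all promoters for the other motifs were counted the same way. The MEF2 box, the site of another factor family of muscle genes, was found in 0 windows in its strict form (0.52% of all promoters). A wider form, with either pyrimidine first and either purine last, was searched after the strict one and found in 1 window, that of Pgam2 (3.01% of all promoters). TATAAA was found in 0 windows, against 12.97% of all promoters. These matches describe the letters only. The windows of 1 cytosolic and 1 mitochondrial creatine kinase, of glycogen phosphorylase and of the regulatory subunit of its kinase are shown, 5′ to 3′ on the gene's strand, with CAGCTG in capitals; they lie at chr7:19410844-19411093 (Ckm, plus), chr13:91876886-91877135 (Ckmt2, minus), chr19:6384158-6384407 (Pygm, plus) and chrX:102644247-102644496 (Phka1, minus).
Ckm: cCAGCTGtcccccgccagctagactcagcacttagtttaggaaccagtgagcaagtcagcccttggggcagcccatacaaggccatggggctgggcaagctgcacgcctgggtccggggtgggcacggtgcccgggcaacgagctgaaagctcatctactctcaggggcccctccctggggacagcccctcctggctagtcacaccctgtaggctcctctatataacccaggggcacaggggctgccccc
Ckmt2: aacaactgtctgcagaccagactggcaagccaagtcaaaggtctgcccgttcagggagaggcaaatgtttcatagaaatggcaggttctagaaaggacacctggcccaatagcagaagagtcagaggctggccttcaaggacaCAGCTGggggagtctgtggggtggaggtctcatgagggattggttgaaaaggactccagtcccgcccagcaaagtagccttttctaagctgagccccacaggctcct
Pygm: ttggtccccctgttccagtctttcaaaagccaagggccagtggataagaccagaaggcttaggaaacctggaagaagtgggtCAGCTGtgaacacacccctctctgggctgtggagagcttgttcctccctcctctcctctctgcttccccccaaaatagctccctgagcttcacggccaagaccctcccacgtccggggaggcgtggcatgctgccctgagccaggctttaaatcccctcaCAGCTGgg
Phka1: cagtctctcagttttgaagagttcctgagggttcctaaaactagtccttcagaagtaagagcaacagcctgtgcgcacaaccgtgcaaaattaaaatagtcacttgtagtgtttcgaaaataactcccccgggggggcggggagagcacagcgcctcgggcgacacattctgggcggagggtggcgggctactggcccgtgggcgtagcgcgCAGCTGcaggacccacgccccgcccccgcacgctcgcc

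The libraries held 17561453 to 19219814 counts, and counting error for the enzymes was small beside the spread between mice. Fbn1 stood at 267, 289 and 262 CPM (counts scaled to 1000000 per library) in WT 1 to 3 and at 1538, 2284 and 2007 in TSK 1 to 3, higher in every TSK library. All 8 keratinocyte markers were detected in the 6 libraries, with 0.418% ± 0.143 of counts in WT against 0.433% ± 0.136 in TSK (SD, n = 3). In log2 fold change (TSK minus WT) 4 of the 8 were positive and 4 negative, Krt5 (-0.60) and Krt14 (-0.61) among the latter. Lor and Krtdap were called higher by edgeR, against 2.71% of all genes. The 8 hair follicle markers held little RNA, 0.000635% ± 0.000356 in WT and 0.0028% ± 0.000502 in TSK, with no overlap. Of 6 that were tested, edgeR called Krt25, Krt71, Krt27 and Lef1 higher. The labels call the mice female and the study's methods call them male. Ddx3y, on the Y chromosome, stood at 56.7 to 72.8 CPM in all 6 libraries.

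In every enzyme WT 1 was the lowest WT library. By edgeR's quasi-likelihood test 10 of 10 had a lower fitted level in TSK, with a median log2 fold change of -0.78 (TSK minus WT), against -0.03 over all 19971 genes tested. None reached an adjusted p of 0.05 in edgeR, where 0.681% of all genes tested were called lower and 2.71% called higher. An unadjusted p below 0.05 was found for 9 of the 10, against 7.9% of all genes on the lower side. DESeq2 called 7 of the 10 lower at an adjusted p of 0.05, against 1.98% of genes, and limma-voom called 0. The count moved with 1 library. Without WT 1 edgeR called 9 of the 10 lower, all but Ckmt2, with a median log2 fold change of -1.0, against 2.66% of genes. With all libraries, 0 enzymes moved by more than 2.5-fold in edgeR. The threshold of the study, more than 2.5-fold with an adjusted p below 0.01, was passed by 0 enzymes with all libraries and by 0 without WT 1, where Phka1 had a log2 fold change of -1.33 and an adjusted p of 0.0132. In bulk skin RNA, fewer muscle fibres and less enzyme RNA per fibre cannot be told apart.

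**Figure D1:**
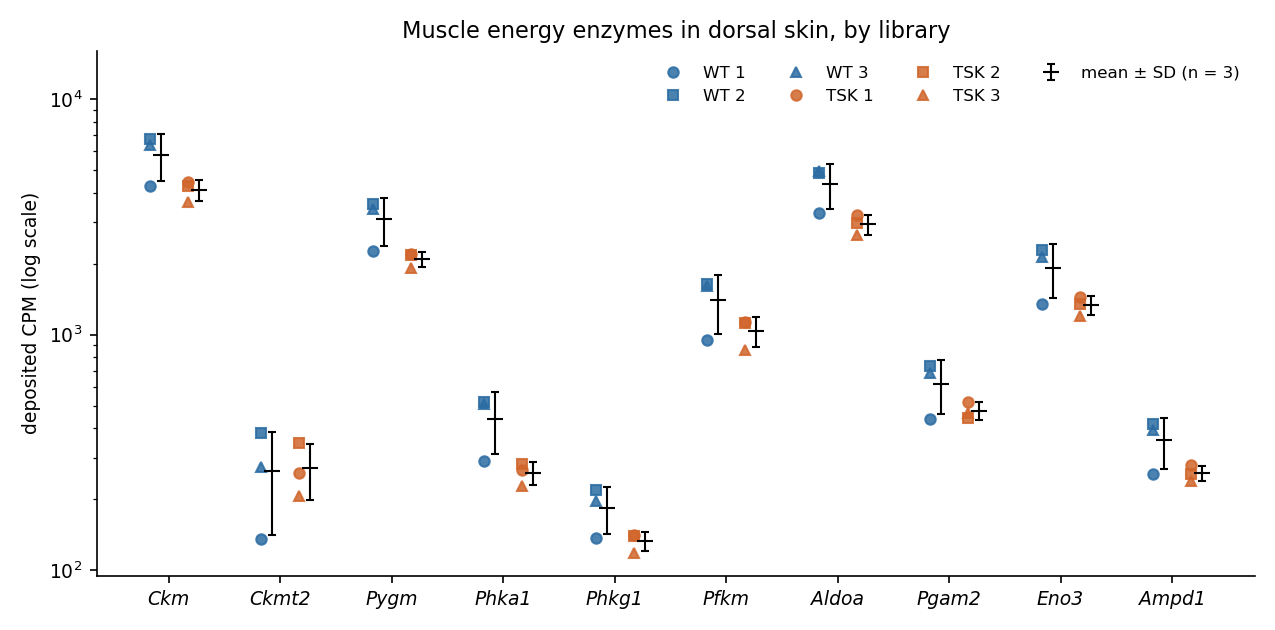
Deposited CPM of the 10 enzymes on a log axis. Each point is 1 mouse, coloured by genotype and shaped by library number, and the bars give the mean ± SD of 3 mice. WT 1 lies beneath WT 2 and WT 3 for every enzyme and, apart from Ckmt2, close to the TSK range. Ckmt2 has the widest spread in WT.

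The creatine kinases are the members that move phosphate between ATP and creatine. Ckm, the cytosolic muscle form, was the most abundant enzyme of the 10 per exon length and stood at 4285, 6731 and 6350 CPM in WT 1 to 3 and at 4453, 4259 and 3643 in TSK 1 to 3. The groups overlapped, because WT 1 lay below TSK 1. Its means were 5788 ± 1316 in WT and 4118 ± 423 in TSK (SD, n = 3), and its log2 fold change was -0.80 (SE 0.32), with an adjusted p of 0.209 in edgeR and 0.0285 in DESeq2. Ckmt2, the form in muscle mitochondria, did not follow Ckm. Its values were 137, 381 and 276 CPM in WT 1 to 3, against 259, 349 and 207 in TSK 1 to 3, so that the highest and the lowest library were both WT. The log2 fold change of Ckmt2 was -0.29 (SE 0.40, edgeR adjusted p = 0.737), and it turned to 0.04 when libraries were scaled by their totals alone.

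Glycogen breakdown was represented by the phosphorylase and by subunits of the kinase that switches it on. Pygm, muscle glycogen phosphorylase, stood at 2266, 3570 and 3409 CPM in WT 1 to 3 and at 2191, 2167 and 1913 in TSK 1 to 3. Every TSK library lay below every WT library, though TSK 1 and WT 1 were close. The log2 fold change of Pygm was -0.87 (SE 0.29), with an adjusted p of 0.145 in edgeR and 0.0116 in DESeq2. Phka1, the regulatory alpha subunit of phosphorylase kinase in muscle, had the lowest log2 fold change of the 10. It was measured at 291, 518 and 510 CPM in WT and 268, 282 and 228 in TSK, with no overlap. Its log2 fold change was -1.07 (SE 0.29), with an adjusted p of 0.0816 in edgeR and 0.00388 in DESeq2. Phkg1, the catalytic gamma subunit of the same kinase, had 137, 219 and 197 CPM in WT and 141, 140 and 119 in TSK, and WT 1 lay among the TSK values. It differed by -0.77 (SE 0.24) on the log2 scale, with an adjusted p of 0.122 in edgeR and 0.0368 in DESeq2.

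The glycolytic members act at 4 steps from fructose phosphate towards pyruvate. Pfkm, muscle phosphofructokinase, which commits sugar to glycolysis, stood at 946, 1646 and 1614 CPM in WT 1 to 3 and at 1126, 1121 and 863 in TSK 1 to 3. Here WT 1 lay below both TSK 1 and TSK 2. The log2 fold change was -0.75 (SE 0.31), and neither edgeR (adjusted p = 0.221) nor DESeq2 (adjusted p = 0.0914) called it. Aldoa, the aldolase of muscle and of many other cells, splits the resulting sugar. It stood at 3270, 4847 and 4952 CPM in WT and at 3209, 2986 and 2634 in TSK, with no overlap, and differed by -0.87 (SE 0.30, adjusted p = 0.154 in edgeR and 0.01 in DESeq2).

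Pgam2, the muscle phosphoglycerate mutase, was measured at 439, 736 and 686 CPM in WT 1 to 3 and at 520, 441 and 466 in TSK 1 to 3. WT 1 was the lowest of the 6 libraries. Its log2 fold change of -0.69 (SE 0.27) had an adjusted p of 0.199 in edgeR and 0.0885 in DESeq2. Eno3, the muscle enolase, makes phosphoenolpyruvate. Its values were 1353, 2278 and 2145 CPM in WT and 1444, 1351 and 1200 in TSK, where WT 1 lay between TSK 1 and TSK 2. The difference was -0.84 (SE 0.29) on the log2 scale, with an adjusted p of 0.159 in edgeR and 0.0271 in DESeq2. Ampd1, the muscle AMP deaminase, removes the AMP that accumulates when ATP is spent. Its values were 258, 420 and 394 CPM in WT and 279, 257 and 241 in TSK, with WT 1 inside the TSK range, and it differed by -0.77 (SE 0.25, adjusted p = 0.140 in edgeR and 0.0415 in DESeq2).

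Scaling bore on these sizes. The TMM factors of WT lay between 0.823 and 1.03 and those of TSK between 1.06 and 1.13, and scaling by library totals alone raised the median log2 fold change of all genes to 0.25 and that of the enzymes to -0.48. Relative to the median of all genes, the enzymes lay at -0.76 with TMM and at -0.73 with totals alone. In deposited CPM, 3 enzymes did not overlap between the groups and were lower in TSK, Pygm, Phka1 and Aldoa, against 2.58% of all genes. After TMM scaling these 3 and Phkg1 did not overlap, against 10.6%.

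To compare levels between genes, counts were divided by exon length and scaled to 1000000. The order from highest to lowest was Ckm, Aldoa, Eno3, Pygm, Pgam2, Pfkm, Ckmt2, Ampd1, Phka1 and Phkg1 in the means of both genotypes. On this scale Ckm averaged 3298 ± 1033 in WT and 2576 ± 419 in TSK, and Phkg1 averaged 47.0 ± 14.7 and 37.4 ± 6.41 (SD, n = 3). Each gene exceeded the next in all 6 libraries, apart from Aldoa and Eno3, whose order held in 5. Because the libraries spread widely, the ranges of neighbours separated for Phka1 and Phkg1 alone, the last pair of subunits, although both belong to the same kinase.

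Nearly all of the enzymes varied together from library to library. Averaged over the 10 and centred on each gene's own mean, the log2 CPM after TMM was -0.31, 0.79 and 0.58 in WT 1 to 3, against -0.21, -0.29 and -0.56 in TSK 1 to 3. In 9 of the 10 TSK 3 was the lowest TSK library, the exception being Pgam2, and in all 10 WT 2 was the highest WT library on this scale, whereas in deposited CPM Aldoa was highest in WT 3. The closest pair was Ckm and Phkg1, with a root mean square distance of 0.0309 log2 units over the 6 libraries. Ckmt2 lay furthest from the mean of the other 9, at 0.42, and its nearest neighbour, Pfkm, was 0.358 away.

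**Figure D2:**
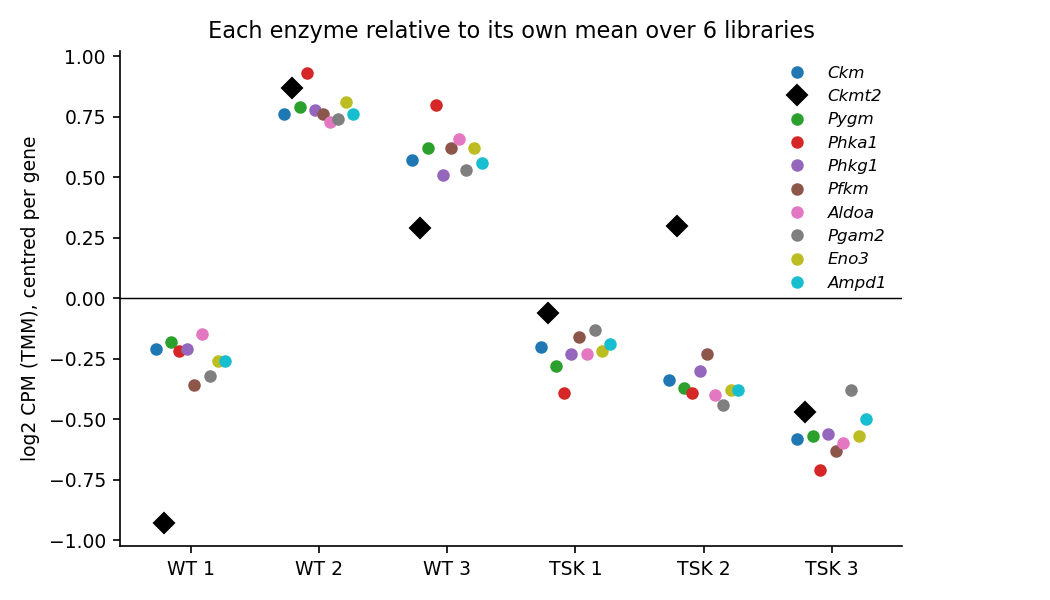
Log2 CPM after TMM scaling of each enzyme minus its mean over the 6 libraries, with 1 point per enzyme in each library. For 9 enzymes the points of a library lie close together. Ckmt2, drawn as a black diamond, lies at -0.93 in WT 1 and at 0.30 in TSK 2, away from the others; its direction between the groups turns when libraries are scaled by totals alone.

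Among 12007 genes with a mean of at least 5 CPM, 5 that are not members had the profile nearest to the mean of the 10. They were Myom1 (distance 0.0309), Myom2 (0.031), Trim55 (0.0399), Homer1 (0.0571) and Tnni2 (0.0575). Myom1 and Myom2 encode M-band proteins of the sarcomere, Trim55 a ubiquitin ligase of muscle, Homer1 a scaffold protein also found in muscle, and Tnni2 the fast fibre troponin I.

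Muscle markers were compared beside the enzymes. The 24 genes of an adult sarcomere list took 16.1%, 23.3% and 22% of the counts in WT 1 to 3, against 15.9%, 15% and 14.1% in TSK 1 to 3, and the 10 enzymes took 1.34%, 2.13% and 2.05% and 1.39%, 1.34% and 1.15%. The sarcomere shares did not overlap, at 20.5% ± 3.88 and 15% ± 0.872 (SD, n = 3, exact permutation p = 0.1, two-sided, the smallest that 3 against 3 can give). The enzyme shares overlapped through WT 1, at 1.84% ± 0.438 and 1.29% ± 0.125 (exact permutation p = 0.2). The median log2 fold change of the sarcomere genes was -0.73. Of the 24, all were detected in every library, and edgeR called 0. At an unadjusted p below 0.05, 11 were lower, against 7.9% of all genes, and 1 higher, for which no share of all genes was computed. DESeq2 called 11 lower, against 1.98% of genes, and 1 higher, against 1135 of 20629. On the log2 scale 18 of the 24 were negative and 6 positive, slow fibre genes and Myh2 (1.26) among the latter. Developing muscle genes showed another pattern over the libraries, with shares of 0.0356%, 0.0295% and 0.0510% in WT 1 to 3, against 0.0146%, 0.0075% and 0.0104% in TSK 1 to 3, and no overlap. Of 9 tested, edgeR called 8 lower, among them Myh3, Myh8, Myl4, Myog, Tnnt2 and Chrng, against 0.681% of all genes. Their median log2 fold change in edgeR was -1.92. DESeq2 called 10 of 10 lower, against 1.98% of genes. All 5 satellite cell genes were negative, with a median of -0.60, and edgeR called Cdh15 lower. Their part in the enzyme values was not tested.

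**Figure D3:**
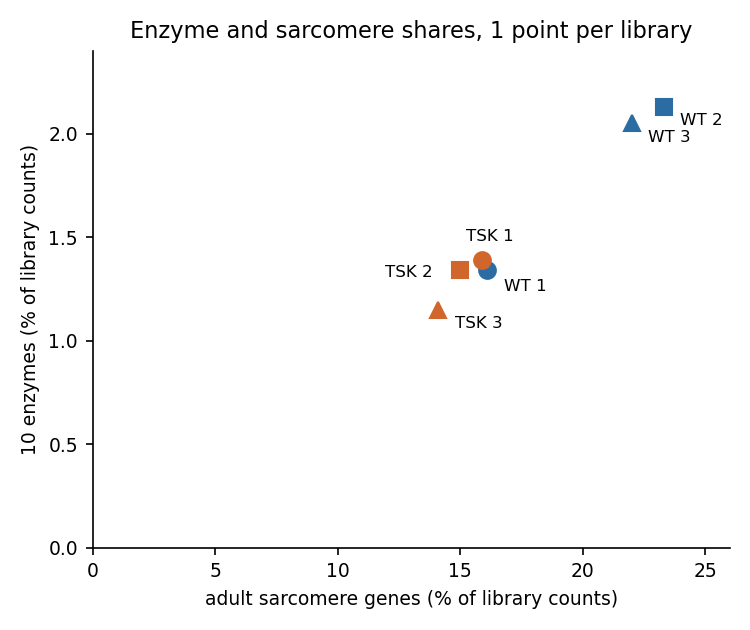
Share of counts held by the 10 enzymes against the share held by 24 adult sarcomere genes, both in percent of the library's counts, with 1 point per mouse. WT 2 and WT 3 lie at the upper right, at 22% to 23.3% sarcomere counts, and WT 1 lies beside TSK 1.

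The enzymes were then set against the sarcomere genes of the same library. For every 100 sarcomere counts there were 8.33, 9.14 and 9.33 enzyme counts in WT 1 to 3, against 8.74, 8.90 and 8.14 in TSK 1 to 3, so the groups overlapped. The difference of the log2 ratios was -0.06 (exact permutation p = 0.5, two-sided). It was -0.02 without WT 3 or without TSK 3, and -0.1 without WT 1, when the groups did not overlap (exact permutation p = 0.2, the smallest that 2 against 3 can give). With all libraries it was -0.53 (exact permutation p = 0.2) when the mean log2 CPM over genes replaced the sums, where slow fibre genes of the list weigh as much as Ttn. With a fast fibre list of 9 genes in place of the sarcomere list it was 0.07 (exact permutation p = 0.5). Each enzyme was also taken alone, which made 10 such comparisons. For 8 of them the log2 ratio to the sarcomere differed by between -0.11 (Aldoa) and 0.08 (Pgam2). The other two were Phka1, at -0.29 (exact permutation p = 0.2), and Ckmt2, at 0.56 (exact permutation p = 0.3). Aldoa was the single enzyme whose ratios did not overlap, at 2.04, 2.08 and 2.25 per 100 sarcomere counts in WT and 2.02, 1.99 and 1.86 in TSK (exact permutation p = 0.1). That p is the smallest that 3 against 3 can give, and it was 0.67 after Benjamini-Hochberg adjustment over the 10 enzymes. Whether the amount of muscle in the skin accounts for the enzyme values was not tested.

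Some pairs of enzymes that work together were compared within libraries, with the pairs chosen after their values had been seen. There were 3.18, 5.66 and 4.34 counts of Ckmt2 for every 100 of Ckm in WT 1 to 3, against 5.82, 8.19 and 5.67 in TSK 1 to 3. All TSK ratios lay above all WT ratios, TSK 3 only just above WT 2 (exact permutation p = 0.1). For every 100 counts of Phkg1 there were 212, 236 and 259 of Phka1 in WT and 190, 200 and 191 in TSK, with every TSK ratio lower (exact permutation p = 0.1). The ratio of Pfkm to Pygm overlapped between the groups, at 45.1 ± 2.93 per 100 in WT and 49.4 ± 3.72 in TSK (SD, n = 3, exact permutation p = 0.3).

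Slow fibre genes followed another course, and are given beside Ckmt2, a gene of oxidative muscle. The 8 genes of a slow fibre list took 0.0159%, 0.116% and 0.0178% of the counts in WT 1 to 3, against 0.0456%, 0.236% and 0.109% in TSK 1 to 3. Myh7, the slow myosin heavy chain, stood at 2.35, 541 and 2.12 CPM in WT and at 135, 980 and 470 in TSK, and the groups overlapped. Both were low in WT 1 and WT 3, whereas Ckmt2 was low in WT 1 and at 276 CPM in WT 3 lay above TSK 1 and TSK 3. All 8 had a positive log2 fold change, with a median of 0.94, but edgeR called 0 of them, 0 passed an unadjusted p of 0.05 and DESeq2 called 0. Of 8 genes for calcium handling and oxygen storage in muscle, 7 were negative, with a median of -0.80 and 0 called in edgeR. At an unadjusted p below 0.05, 6 were lower, against 7.9% of all genes, and DESeq2 called 6 lower, against 1.98%. The positive one of the 8 was Mb, the oxygen store myoglobin, looked up after the values of Ckmt2 were known. It stood at 93.4, 357 and 226 CPM in WT and at 255, 639 and 291 in TSK, lowest in WT 1 and highest in TSK 2. The 9 genes of a fast fibre list had a median log2 fold change of -0.84, close to that of the enzymes, with 8 of 9 negative and 0 called in edgeR. At an unadjusted p below 0.05, 7 were lower, against 7.9% of all genes, and DESeq2 called 8 lower, against 1.98%. These lists share genes, so their values are not separate evidence. Pvalb and Atp2a1 are also in the calcium list. The other fast fibre genes, and Myh7, Tnnt1 and Tnni1 of the slow fibre list, are also in the sarcomere list. The part of fibre type in the enzyme values was not tested.

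Most enzymes have isoforms used by other tissues, and these set a contrast within the same reaction that library scaling cannot move. The muscle form supplied 84.9% to 99.96% of the isoform counts in the WT means. In 9 of 10 enzymes its share was lower in the TSK mean, Ckmt2 being the exception. Ckm gave 99.75%, 99.94% and 99.91% of the counts of Ckm and Ckb in WT 1 to 3, against 99.74%, 99.63% and 99.61% in TSK 1 to 3, and the groups did not overlap. The share of Pygm among the phosphorylases was 98.2%, 99.4% and 99.2% in WT and 97.4%, 94.3% and 96.7% in TSK, again without overlap. Aldoa also separated, by 0.04 percentage points. For these 3 the exact permutation p was 0.1, two-sided, and for the other 7 it was 0.2 to 0.9. After Benjamini-Hochberg adjustment over the 10 enzymes, the p of these 3 was 0.33 and that of the other 7 was 0.33 to 0.9. In counts, the share of Ampd1 went from 90.3% ± 5.36 to 85.1% ± 2.83, and Pgam2 from 94.8% ± 2.7 to 89.8% ± 3.57 (SD, n = 3), and both overlapped. These differences moved with single libraries: that of Ampd1, -5.16 percentage points, was -8.15 without WT 1 and -2.97 without WT 2, and that of Pgam2, -5.08, was -3.02 without TSK 2. The share of Ckmt2, 1.97 percentage points higher in TSK, turned to -4.81 without WT 1 and to -0.504 without TSK 2. Per exon length, Phkg1 differed by -6.24 percentage points, Phka1 by -4.94, Ampd1 by -3.65 and Pgam2 by -2.37.

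The other isoforms that could be tested were at -0.16 or above on the log2 scale. Of these 14, Pygb, the brain form of glycogen phosphorylase, was the single one called in edgeR, where 2.71% of all genes were called higher. It stood at 25.5, 13.7 and 18 CPM in WT 1 to 3 and at 38.3, 61.0 and 40.7 in TSK 1 to 3, with no overlap, and rose by 1.04 on the log2 scale (SE 0.21, adjusted p = 0.0367 in edgeR and 0.000771 in DESeq2). Of the pathway genes, 0 were called higher in edgeR once WT 2, WT 3, TSK 2 or TSK 3 was left out, or with the replicate number as a block. Pygl, the liver form, had a log2 fold change of 1.53 (SE 0.45) with an adjusted p of 0.104 in edgeR and 0.00576 in DESeq2, and TSK 2, at 71.1 CPM, lay far above the other 5 libraries. Ckb, the brain creatine kinase, differed by 0.78 (SE 0.25, edgeR adjusted p = 0.127), though 10% of its 50-base words occur in other genes. The other 11 lay between -0.16 (Ckmt1) and 0.54 (Pfkl and Pgam1), with Pfkp and Ampd3 at -0.02, Phkg2 at 0.07, Phka2 at 0.20, Eno1 at 0.21, Aldoc at 0.28, Ampd2 at 0.32 and Eno2 at 0.43, and edgeR and DESeq2 called 0 of them. Pgam1 and Eno1 share 36.2% and 26% of their words with pseudogenes or copies, so the counts of both are uncertain. Markers of other cell types also differed between the groups. Fibroblast markers held 0.894% ± 0.184 of counts in WT against 3.23% ± 1.57 in TSK, and adipocyte markers 0.0216% ± 0.00215 and 0.117% ± 0.116, highest in TSK 2 at 0.251%. Endothelial markers held 0.0128% ± 0.00102 and 0.0246% ± 0.00794, and macrophage markers 0.0157% ± 0.00327 and 0.037% ± 0.0203. The shares of these 4 lists and of the hair follicle markers were higher in every TSK library than in any WT library (exact permutation p = 0.1 each). They are shares of library totals, a scale on which the median log2 fold change of all genes was 0.25. With TMM, edgeR called 3 of 10 fibroblast and 2 of 8 adipocyte markers higher, against 2.71% of all genes. It called 0 of 5 endothelial and 0 of 5 macrophage markers. Col6a3, Adgre1 and Cd68 overlapped between the groups. A smooth muscle and pericyte list of 7 genes went the other way as a share, 0.214% ± 0.0207 and 0.166% ± 0.0136, lower in every TSK library (exact permutation p = 0.1). Most of those counts were Des, which striated muscle also expresses and which lay at -0.86 on the log2 scale (SE 0.22, edgeR adjusted p = 0.0736). The other 6 genes had positive values, and edgeR called Myh11 higher. Which cells hold the other isoforms was not measured. The part of these cell types in the isoform shares was not tested.

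**Figure D4:**
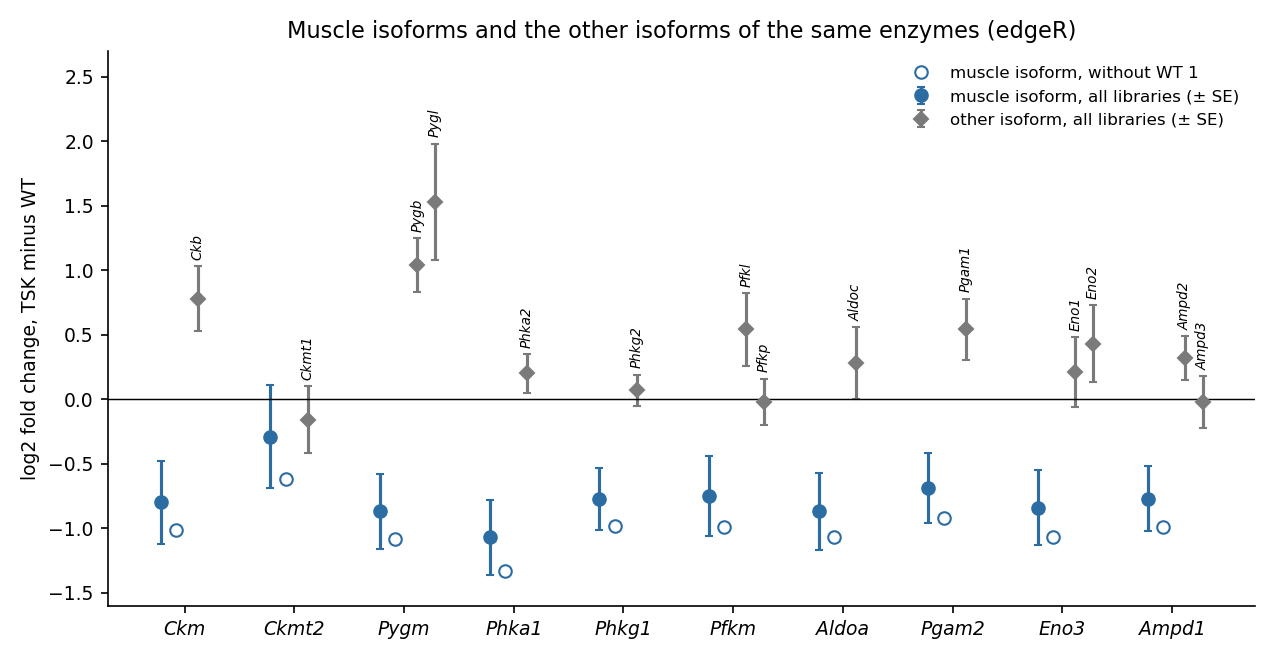
Log2 fold change, TSK minus WT, of the 10 muscle isoforms (circles) and of the other isoforms of the same enzymes (diamonds), from edgeR with TMM, with SE bars over 3 mice a group. Open circles give the muscle isoforms without WT 1. All 10 filled circles lie below 0, Ckmt2 at -0.29 and turning to 0.04 with scaling by totals alone, and Pygb and Pygl lie highest, at 1.04 and 1.53.

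The rest of the 3 pathways was read from lists of 54 further genes. Of 18 tested glycogen genes, edgeR called Pygb higher and 0 lower, against 2.71% and 0.681% of all genes. At an unadjusted p below 0.05, 6 were lower, against 7.9% of all genes, and 4 higher, for which no share of all genes was computed. DESeq2 called 6 lower, against 1.98% of genes, and 2 higher, against 1135 of 20629. Pgm1, which turns the released glucose phosphate towards glycolysis, differed by -0.78 on the log2 scale (SE 0.22, DESeq2 adjusted p = 0.0133), and Ppp1r3a, a glycogen targeting subunit of protein phosphatase in muscle, had -0.83 (SE 0.28, DESeq2 adjusted p = 0.0423). Gys1, the synthase of muscle, had -0.43 (SE 0.27) and Ugp2, which makes its substrate, -0.32 (SE 0.32), and neither was called by edgeR or DESeq2.

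Glycolysis genes outside the 10 had a median log2 fold change of -0.16. Of 23 tested, edgeR called 0. At an unadjusted p below 0.05, 9 were lower, against 7.9% of all genes, and 1 higher, for which no share of all genes was computed. DESeq2 called 4 lower, Pkm, Ldha, Gapdh and Pgk1, against 1.98% of genes. Pkm, pyruvate kinase, stood at 1515, 1953 and 2021 CPM in WT 1 to 3 and at 1360, 1239 and 1132 in TSK 1 to 3, with no overlap, and differed by -0.85 (SE 0.24). Ldha, which makes lactate, differed by -0.73 (SE 0.26), Gapdh by -0.76 (SE 0.22), Tpi1 by -0.70 (SE 0.26) and Gpi1 by -0.55 (SE 0.21). These genes are expressed in most cell types, and several have processed pseudogenes, which makes their counts less certain.

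Among 11 genes of creatine and adenylate metabolism, edgeR called 1 lower, against 0.681% of all genes. Gamt, which makes creatine by methylating its precursor, stood at 25.2, 22.9 and 24.8 CPM in WT 1 to 3 and at 17.1, 11.8 and 13.6 in TSK 1 to 3. The groups were well apart, WT 1 included, and Gamt fell by 1.06 on the log2 scale (SE 0.17, adjusted p = 0.0187 in edgeR and 4.99e-05 in DESeq2). Without WT 2, WT 3 or TSK 3, 0 genes of the list were called lower in edgeR. Slc6a8, the creatine transporter, was at -0.08 (SE 0.15). Ak1, the muscle adenylate kinase, differed by -0.69 (SE 0.26) and Adssl1, a purine nucleotide cycle enzyme of muscle beside Ampd1, by -0.51 (SE 0.28), and neither was called by edgeR or DESeq2.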

How the data were processed

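RNA was measured in the dorsal skin of 3 TSK and 3 WT mice, grouped by the genotype in the labels, with 1 library per mouse. The authors depleted ribosomal RNA, prepared stranded libraries, sequenced single reads of 50 bases, aligned them with STAR to mm10 and quantified genes in Partek Flow (per the submitters' processing notes: bcl2fastq 2.19.1.403 and Partek 11.0). The deposited tables hold estimated counts and CPM per gene, both made by the authors. Although the table of counts carries the name raw, only 43.3% to 45.4% of its non-zero values per library were whole (within 0.001), and the estimated counts were therefore rounded. The median ratio of the deposited CPM to counts scaled by library total was 0.9999 to 1.0002. Of 55291 genes, 36977 had a count above 0 in at least 1 library, and no column belonged to another sample. Libraries of a group differed by a chi-square of at least 8.87 per degree of freedom, so none was a copy of another.

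The main test was edgeR 4.0.16 (quasi-likelihood, TMM, filterByExpr, which kept 19971 genes, all 10 enzymes included) in R 4.3.3, with Benjamini-Hochberg adjustment over all genes and a call at an adjusted p below 0.05. DESeq2 1.42.0 and limma 3.58.1 were alternatives. Log2 fold changes are TSK minus WT. Shares and ratios were compared by exact permutation tests, two-sided, on 1 value per mouse. P-values measure the spread between these mice. Gene bounds in the deposited tables, whose stops are given past the last base, were checked against GENCODE M21. With that allowed for, 95.7% of genes lay at the same position. The tests were tried on simulated counts first. The same replicate numbers did not pair the mice.

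The enzymes and the lists were chosen with earlier results of these data known. Named were the enzymes and their other isoforms, in each further list of the pathways up to 5 genes by mean CPM and every called gene, in other lists only genes that a result is set beside, the 5 nearest profiles, Fbn1 and sex-linked genes; Mb and genes given for a call in DESeq2 alone were chosen after their values were seen. 1 gene that the rule names is not reported here. Alternatives covered normalization, tool, unit with a pseudocount of 1 or 0.1, low-count filter, denominators, a sarcomere score as a covariate, the replicate number as a block, and each library left out in turn. The study's single-cell data were not analysed here.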

Additional observations from a re-analysis of the deposited data

How the results depend on the processing

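The 10 enzymes were followed through 19 alternative fits. Of the resulting 190 log2 fold changes, 159 kept their direction and their side of an adjusted p of 0.05, 18 gained a call, all lower in TSK, and 13 turned positive. The main fit called 0 of the 10, so no call could be lost. Enzymes called lower numbered 7 in DESeq2, 1 (Phka1) with no low-count filter, 1 (Phka1) with the mean log2 CPM of the sarcomere genes as a covariate, and 0 to 9 when each library was left out in turn, where 9 was reached without WT 1. With the log2 of summed sarcomere CPM as the covariate, chosen after seeing the data, the median of the enzymes turned to 0.11, and Ckm (0.08), Ckmt2 (1.29), Pygm (0.00), Phkg1 (0.09), Pfkm (0.30), Pgam2 (0.25), Eno3 (0.13) and Ampd1 (0.14) turned with it. That covariate differs between the groups and was computed from the same libraries, so it takes up part of the genotype difference by construction. Ckmt2 also turned with library totals (0.04), with limma on log2(CPM + 1) or log2(CPM + 0.1) (0.13 in both), with the mean sarcomere covariate (0.07) and without WT 2 (0.16, in a range of -0.62 to 0.16 with a library left out). Against the fast fibre list the log2 ratio of the enzymes turned to 0.07 (exact permutation p = 0.5). The isoform share of Ckmt2 differed by 1.97 percentage points, by -4.81 without WT 1 and by -0.504 without TSK 2, in a range of -4.81 to 6.59 with a library left out.

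The 542 genes called higher became 1685 with library totals, 1135 in DESeq2, 1771 and 1761 with limma on CPM + 1 and + 0.1, 1040 with no filter, 1 with the summed covariate and 45 to 713 with a library left out. The 136 called lower became 409 in DESeq2, 347 with no filter, 234 with the mean covariate, 2 with the summed covariate and 15 to 547 with a library left out. Of the other pathway genes, 1 was called higher, against 4 with library totals, 2 in DESeq2, 5 and 5 with limma on CPM, 3 with no filter, 0 with the summed covariate and 0 to 2 with a library left out. The 1 called lower became 11 in DESeq2, 8 with no filter, 4 with the mean covariate, 0 with the summed covariate and 0 to 18 with a library left out. The cause was not tested in any of these.

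With the replicate number as a block, edgeR called 665 genes higher, 129 lower, 0 enzymes and 0 other pathway genes higher, so the call of Pygb was lost. Libraries of the same number did not deviate together (correlations of 0.0112, 0.167 and -0.0938), so the numbers were not taken as pairs. With 3 mice a group, an exact test cannot go below 0.1 (0.25 for pairs), and depth limited none of the enzymes.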
